A study of Mus musculus with 2 samples.

Results

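Cycling cells were described among islet cells of 9-day-old control mice. A cell was counted as cycling when 7 genes of DNA replication and mitosis, namely Mki67, Top2a, Cdk1, Cenpf, Hmmr, Ube2c and Rrm2, together gave at least 10 unique molecular identifiers (UMIs, each standing for 1 captured transcript). By this rule 125 of 2496 kept control cells cycled, which is 5.01% (exact 95% binomial interval 4.19 to 5.94). The whole series holds 5447 kept cells in 2 libraries.

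The libraries came from pancreas of mice at postnatal day 9, sorted for the tdTomato reporter and run on 10x Chromium 3' v3.1 chemistry, with actinomycin D, an inhibitor of transcription, present during dissociation. The library labelled Isl1CKO carried Neurod1 Cre/+; Isl1f/f, and the control library carried Neurod1 Cre/+; Isl1f/+, so both groups had 1 Cre allele driven from Neurod1, a gene of endocrine cells, and the control also had 1 floxed allele of Isl1, a transcription factor of islet cells. Each library pooled 6 animals. Each genotype is therefore 1 library without a replicate, no test between samples was possible, and every interval given here covers counting error only.

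Cell division runs from G1, in which D-type cyclins with Cdk4 or Cdk6 prepare entry, through S phase, in which DNA is copied, to G2 and mitosis, in which cyclin B with Cdk1 drives the cell to divide. Genes of S phase are largely activated by E2F factors, whereas many genes of G2 and mitosis carry CCAAT boxes and a cell cycle homology region, TTTGAA, that binds the DREAM and MuvB complexes. In mice, the mass of insulin-making beta cells and glucagon-making alpha cells grows after birth mainly by division of existing cells, and beta-cell division becomes rarer with age.

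The promoters below show these elements in genes that define the cycling cells. All are read 5' to 3' on the gene's strand from 250 bases before to 50 after the start that RefSeq lists first for the gene, on GRCm38.p6. Capitals mark the CCAAT box, the cell cycle homology region TTTGAA and 4 forms of the E2F site, searched on both strands. The E2F forms searched were TTTGGCGC and TTTCGCGC, together with TTTCCCGC and TTTGCCGC. Cdk1, the mitotic kinase, Ube2c, the ubiquitin-conjugating enzyme that serves the anaphase-promoting complex, and Hmmr, a spindle protein, stand for G2 and mitosis. Rrm2, a subunit of ribonucleotide reductase, and Clspn, the replication checkpoint adaptor claspin, stand for S phase, and Clspn was chosen as the S-phase gene with an E2F match and the most UMIs in cycling cells.
Cdk1 (chr10:69352863-69353162, minus strand): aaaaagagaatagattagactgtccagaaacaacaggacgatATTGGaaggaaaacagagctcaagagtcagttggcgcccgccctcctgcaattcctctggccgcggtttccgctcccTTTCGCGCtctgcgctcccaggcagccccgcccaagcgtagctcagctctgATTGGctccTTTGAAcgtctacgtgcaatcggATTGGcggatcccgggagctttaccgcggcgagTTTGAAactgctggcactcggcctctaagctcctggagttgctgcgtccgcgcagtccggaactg
Ube2c (chr2:164769679-164769978, plus strand): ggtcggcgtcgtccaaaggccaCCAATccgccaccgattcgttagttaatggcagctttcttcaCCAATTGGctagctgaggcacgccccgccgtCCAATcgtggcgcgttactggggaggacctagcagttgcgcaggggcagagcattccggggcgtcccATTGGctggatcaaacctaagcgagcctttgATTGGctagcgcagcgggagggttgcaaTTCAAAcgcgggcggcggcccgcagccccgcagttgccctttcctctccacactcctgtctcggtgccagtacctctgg
Hmmr (chr11:40733388-40733687, minus strand): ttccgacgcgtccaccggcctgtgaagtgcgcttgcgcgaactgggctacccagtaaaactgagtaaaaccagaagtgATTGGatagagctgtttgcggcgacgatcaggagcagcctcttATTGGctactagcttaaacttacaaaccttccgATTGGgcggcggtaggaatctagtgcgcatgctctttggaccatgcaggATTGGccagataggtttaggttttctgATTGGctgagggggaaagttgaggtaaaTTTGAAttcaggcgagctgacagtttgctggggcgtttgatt
Rrm2 (chr12:24708004-24708303, plus strand): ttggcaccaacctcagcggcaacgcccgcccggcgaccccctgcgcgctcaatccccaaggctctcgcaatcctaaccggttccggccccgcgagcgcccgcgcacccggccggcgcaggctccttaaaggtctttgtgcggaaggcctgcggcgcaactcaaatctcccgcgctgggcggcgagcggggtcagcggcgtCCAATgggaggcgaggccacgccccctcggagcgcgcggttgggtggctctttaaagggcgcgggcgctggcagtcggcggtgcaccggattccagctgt
Clspn (chr4:126556730-126557029, plus strand): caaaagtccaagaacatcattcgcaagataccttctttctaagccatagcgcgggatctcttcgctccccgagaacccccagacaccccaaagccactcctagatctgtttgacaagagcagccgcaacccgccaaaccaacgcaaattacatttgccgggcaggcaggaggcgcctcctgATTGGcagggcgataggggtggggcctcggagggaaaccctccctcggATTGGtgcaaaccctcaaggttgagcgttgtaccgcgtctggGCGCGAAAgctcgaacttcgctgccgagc

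Counted with the start as base 1, TTTGAA began at bases -71 and -15 in Cdk1, at base 9 in Hmmr and, on the other strand, at base -29 in Ube2c. No match to another motif overlapped these, although the CCAAT matches at -186 and -183 in Ube2c share bases with each other. Over lists of genes chosen by function, TTTGAA was present in 26 of 35 matched promoters of the G2 and mitosis list (74.3%), in 3 of 28 of the S-phase list (10.7%) and in 18.1% of 27025 promoters of the same length. CCAAT was present in 26 of 35 G2 and mitosis promoters (74.3%), 16 of 28 S-phase promoters (57.1%) and 37.9% of all promoters. An E2F form was present in 0 of 35 G2 and mitosis promoters, 9 of 28 S-phase promoters (32.1%) and 2.32% of all promoters. Among the 7 genes of the rule, TTTGAA was found in 6, CCAAT in 7 and an E2F form in 1. A match describes letters in these windows and shows no binding.

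The 7 genes separated a small set of cells from the rest. They gave 0 UMIs in 2010 control cells (80.5%), 1 UMI in 232 and 2 to 4 UMIs in 104. Just under the threshold, 9 cells had 8 or 9 UMIs, and just inside it, 7 cells had 10 or 11. Cycling cells held a median of 56 UMIs of the 7 genes (quartiles 21 and 131, range 10 to 464), and 67 of them held 50 or more. Cycling cells thus accounted for 10739 UMIs and all other control cells for 666, and 94.2% of all UMIs of these genes lay in cycling cells.

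Scaled to 1000000 UMIs outside 8 islet hormone genes (CPM, the scale used below unless stated), the 7 genes summed to 4820 CPM in cycling cells and 21.0 CPM in other control cells. In near-empty barcodes of 1 to 50 UMIs, which sample free RNA, the sum was 152 CPM. Mki67, the proliferation antigen, was counted in 123 of 125 cycling cells and 118 of 2371 other cells, and Cenpf, a kinetochore protein, in 112 and 87. Rrm2, the only gene of DNA synthesis in the rule, was counted in 65 cycling cells and 50 others. These values chose the cells and are no finding about them.

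**Figure D1:**
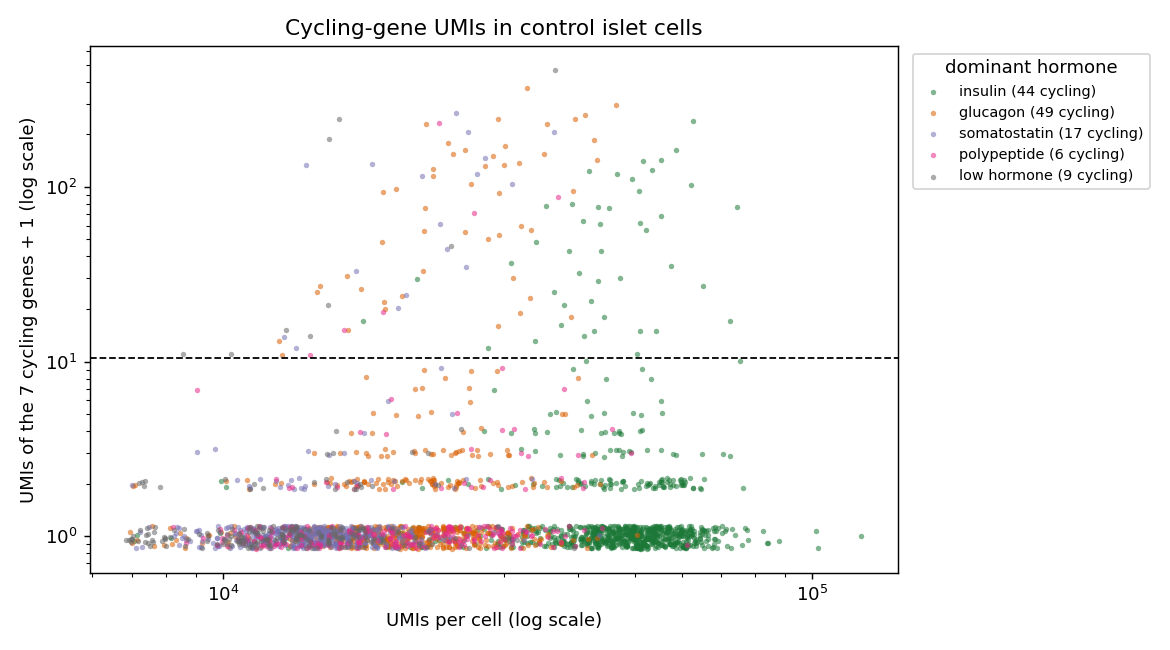
UMIs of the 7 cycling genes plus 1 (vertical, log scale) against all UMIs of the cell (horizontal, log scale) for 2496 control cells, coloured by dominant hormone. Points are jittered vertically. The dashed line marks the minimum of 10 UMIs, above which 125 cells lie and below which 2010 cells sit at 0.

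Cycling cells were found in every hormone class. A cell was placed in the class of its leading hormone, Ins1 with Ins2, Gcg, Sst or Ppy, where that made up at least 5% of its UMIs. Glucagon-dominant cells cycled most often, with 49 of 635 cells or 7.72% (5.76 to 10.1), followed by insulin-dominant cells, with 44 of 913 or 4.82% (3.52 to 6.42). Somatostatin-dominant cells stood at 17 of 490 or 3.47% (2.03 to 5.50) and polypeptide-dominant cells at 6 of 244 or 2.46% (0.908 to 5.28). Cells below 5% of every hormone stood at 9 of 214 or 4.21% (1.94 to 7.83). In this order the intervals of neighbouring classes overlapped. That of the glucagon-dominant class lay above those of the somatostatin- and polypeptide-dominant classes, but this separation depends on the settings. Several hormones, meaning more than 1 of the 4 hormone types at 5% or more of the cell's hormone UMIs, were carried by 11 of 17 cycling and 380 of 473 other somatostatin-dominant cells. Without cells of several hormones, 6 of 99 somatostatin-dominant cells cycled (6.06%, 2.26 to 12.7), 4 of 141 polypeptide-dominant (2.84%, 0.778 to 7.10), 45 of 537 glucagon-dominant (8.38%, 6.18 to 11.1) and 38 of 863 insulin-dominant (3.13% to 5.99%), so both intervals overlapped that of the glucagon-dominant class and the somatostatin-dominant share stood above the insulin-dominant one. The polypeptide-dominant interval also overlapped it with a minimum of 5 UMIs of the 7 genes, with a hormone minimum of 1% or none, and with 5000 UMIs drawn outside the hormones.

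Depth differed between these classes, at a median of 48160 UMIs per insulin-dominant, 20560 per glucagon-dominant, 14403.5 per somatostatin-dominant and 20299 per polypeptide-dominant cell. With every cell thinned to 6825 UMIs and a minimum of 5, the shares were 7.24% for glucagon-dominant and 2.96% for insulin-dominant cells. That thinning also counts insulin transcripts, which fill most of an insulin-dominant cell. With 5000 UMIs drawn outside the hormones and a minimum of 4, chosen after seeing the data, the shares were 7.62% and 4.76%.

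The markers of each islet cell type followed the hormone classes. Among cycling cells, Irx2, a transcription factor of alpha cells, stood at 202 CPM in glucagon-dominant cells and at 18.2 CPM in insulin-dominant cells. Nkx6-1 and Pdx1, transcription factors of beta cells, stood at 242 and 646 CPM in insulin-dominant and at 42.3 and 25.4 CPM in glucagon-dominant cycling cells. Hhex, a transcription factor of delta cells, was at 330 CPM in somatostatin-dominant cycling cells and 2.60 CPM in insulin-dominant ones.

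Not all cycling cells were endocrine by their markers. Of the 9 cycling cells low in every hormone, 3 held 187 to 202 UMIs of the 7 mesenchymal markers (Col1a1, Col3a1, Dcn and others) and another held 17. A further cell held 2540 acinar UMIs on 910 genes and another held 60 ductal UMIs. The other 3 carried hormone below the class minimum. Glucagon made up 4.65% of UMIs in 1 of them and pancreatic polypeptide 2.89% in another. The last, which held the highest count of the 7 genes at 464, had 3.42% pancreatic polypeptide and 1.83% somatostatin. Among the 116 cycling cells of a hormone class, 1 glucagon-dominant cell held 221 mesenchymal UMIs and immune markers gave 1 UMI in all. Of the 4 cell barcodes kept in both libraries, 1 was a cycling control cell.

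The pool held both sexes, with 452 control cells that had Xist without Y-linked transcripts and 1758 with the reverse. Of these, 21 Xist-only cells (4.65%, 2.90 to 7.01) and 95 Y-only cells (5.40%, 4.39 to 6.57) cycled. In the glucagon-dominant class 5 of 132 Xist-only cells (3.79%, 1.24 to 8.62) and 40 of 444 Y-only cells (9.01%, 6.51 to 12.1) cycled. In the insulin-dominant class the counts were 13 of 191 (6.81%, 3.67 to 11.4) and 30 of 628 (4.78%, 3.25 to 6.75) for Xist-only and Y-only cells. In both classes the intervals of Xist-only and Y-only cells overlapped.

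The same rule was applied to the Isl1CKO library. There 165 of 2951 cells cycled (5.59%, 4.79 to 6.48), against 125 of 2496 control cells (5.01%, 4.19 to 5.94), and these intervals overlap. Among insulin-dominant cells, 6 of 572 Isl1CKO cells cycled (1.05%, 0.386 to 2.27), against 44 of 913 control cells (4.82%, 3.52 to 6.42). These 2 intervals do not overlap. Of the Isl1CKO cycling cells, 159 were low in every hormone, out of 2371 such cells (6.71%, 5.73 to 7.79), against 9 of 214 in the control library. The Isl1CKO library held 2, 5 and 1 cells dominated by glucagon, somatostatin and pancreatic polypeptide, so no share could be read for them. Insulin-dominant cells had a median of 32497.5 UMIs in Isl1CKO and 48160 in control. Outside the hormones the medians were 16805 in Isl1CKO and 14384 in control, and thinning of all UMIs also counts hormone transcripts. With both libraries thinned to 6825 UMIs and a minimum of 5, the shares of insulin-dominant cells were 0.874% (0.284 to 2.03) in Isl1CKO and 2.96% (1.96 to 4.27) in control, and these intervals overlap. With a minimum of 5 UMIs and no thinning, they were 2.10% (1.09 to 3.64) in Isl1CKO and 5.81% (4.38 to 7.52) in control. The intervals then lay apart. With no hormone minimum, cells low in hormone also count as led by insulin, and 118 of 2388 Isl1CKO cells (4.94%, 4.11 to 5.89) and 50 of 1057 control cells (4.73%, 3.53 to 6.19) led by insulin cycled, so the direction turned. Whether genotype, pool or library underlies these differences cannot be told apart with 1 library each.

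Other transcripts were compared between cycling cells of the 2 genotypes, without the other Isl1CKO cells beside them. Of all kept cells, those low in every hormone made up 80.3% in Isl1CKO and 8.57% in control. The part of this make-up in the values below was not tested. Islet hormones made up a median of 0.293% of UMIs in 165 Isl1CKO cycling cells and 33.2% in 125 control ones. The 7 genes gave a median of 65 UMIs per Isl1CKO cycling cell and 56 per control cycling cell. Ttr, transthyretin, an abundant alpha-cell transcript, stood at 87546 CPM in Isl1CKO and 22738 CPM in control cycling cells. Within control cycling cells, Ttr stood at 47705 CPM in glucagon-dominant and 4467 CPM in insulin-dominant cells. The progenitor factors Fev and Neurog3 lay on opposite sides. Fev stood at 134 CPM in Isl1CKO and 29.2 CPM in control, and Neurog3 at 1.99 CPM in Isl1CKO and 14.8 CPM in control. Of the D-type cyclins, Ccnd1 stood at 39.4 CPM in Isl1CKO and 136 CPM in control cycling cells and Ccnd2 at 665 CPM in Isl1CKO and 1034 CPM in control. The targeted gene Isl1 was counted at 407 CPM in Isl1CKO and 476 CPM in control cycling cells, and a 3' tag outside the floxed part checks nothing about the deletion.

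**Figure D2:**
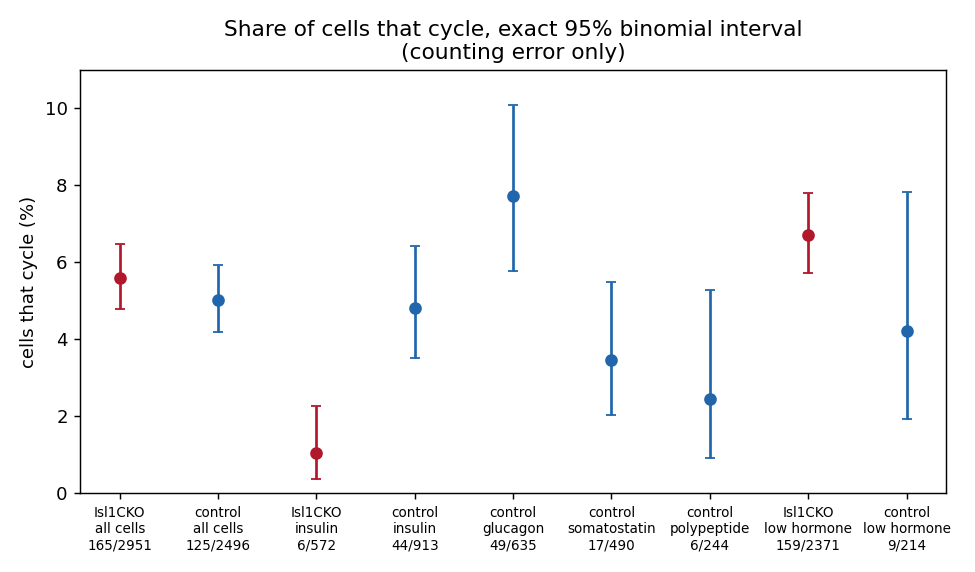
Percent of cells that cycle (vertical) by genotype and dominant hormone, with exact 95% binomial intervals and the counts under each point. Isl1CKO insulin-dominant cells stand at 1.05%, below control insulin-dominant cells at 4.82%, and control glucagon-dominant cells are highest at 7.72%.

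The stage of the cycle was compared between cycling cells of the hormone classes. Each cycling cell was placed by the UMIs of an S-phase list of 36 genes (Pcna, the Mcm genes, Tyms and others) and a list of 44 genes of G2 and mitosis (Ccnb1, Cdc20, Cenpa and others), of which 41 were found. It leaned to G2 and mitosis when that list gave over 50% of their joint UMIs. This held for 37 of 44 insulin-dominant cycling cells (84.1%, 69.9 to 93.4) and 29 of 49 glucagon-dominant ones (59.2%, 44.2 to 73.0), and these intervals overlap. The overlap depends on the settings. With a minimum of 5 UMIs of the 7 genes, the intervals lay apart, at 72.4% to 93.3% and 39.1% to 65.7%. They also lay apart without cells of several hormones, and overlapped under the other settings tried. A lean to G2 and mitosis held for 11 of 17 somatostatin-dominant, 4 of 6 polypeptide-dominant and 6 of 9 low-hormone cycling cells. In the Isl1CKO library 109 of 165 cycling cells leaned that way (66.1%, 58.3 to 73.2), against 87 of 125 in the control library (69.6%, 60.7 to 77.5).

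The S-phase list had a median of 688 CPM in insulin-dominant cycling cells and 353 CPM in other insulin-dominant cells, but 6676 CPM in glucagon-dominant cycling cells and 507 CPM in other glucagon-dominant cells. Somatostatin-dominant cells had 6197 CPM in cycling and 469 CPM in other cells, and polypeptide-dominant cells 2676 CPM in cycling and 583 CPM in other cells. The list of G2 and mitosis had medians of 7785 CPM in insulin-dominant and 9433 CPM in glucagon-dominant cycling cells. An S-phase level of 2000 CPM, a minimum chosen after seeing the data, was reached by 7 of 44 insulin-dominant and 39 of 49 glucagon-dominant cycling cells.

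The 7 insulin-dominant cycling cells that leaned to S phase stood apart in other ways. Of these, 4 carried several hormones and 1 was called a doublet, against 2 and 0 of the 37 that leaned to G2 and mitosis. Their UMIs outside hormones had a median of 26843, against 15264 in the 37. Insulin made up a median of 45.1% of their UMIs, against 60.3%. Without cells of several hormones, 35 of 38 insulin-dominant cycling cells leaned to G2 and mitosis (92.1%, 78.6 to 98.3), and 2 of the 38 reached 2000 CPM of the S-phase list. Of glucagon-dominant cycling cells, 26 of 45 then leaned to G2 and mitosis (57.8%, 42.2 to 72.3), an interval below the insulin-dominant one. The part of doublets in these values was not tested.

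Single genes changed with the lean over all classes. Pcna, the sliding clamp of DNA polymerase, stood at 320 CPM in the 38 cycling cells that leaned to S phase, 58.9 CPM in the 87 that leaned to G2 and mitosis, and 21.3 CPM in other control cells. Ccne2, cyclin E2, which drives entry into S phase, stood at 313, 31.1 and 12.3 CPM in the same order. Ccnb1, cyclin B1, stood at 20.9, 229 and 0.379 CPM. The lists chose these cells, so the values describe the ends of the arc.

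**Figure D3:**
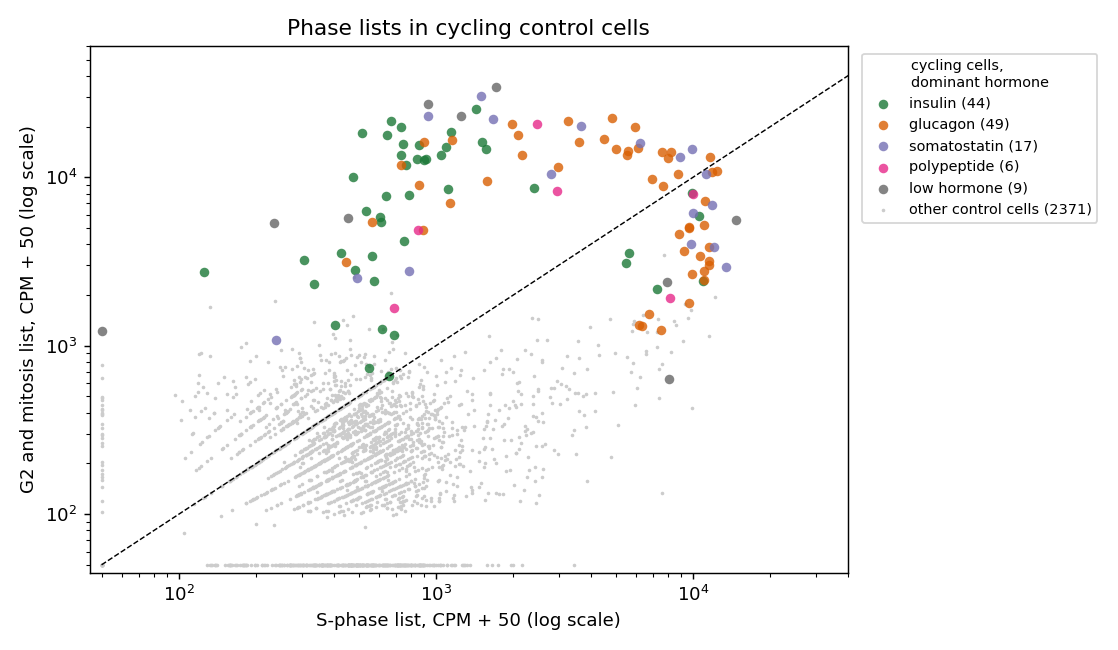
CPM of the S-phase list plus 50 (horizontal, log scale) against CPM of the G2 and mitosis list plus 50 (vertical, log scale), 1 point per cell; coloured points are 125 cycling control cells by dominant hormone and grey points the 2371 others. Cycling cells form an arc; most of the 44 insulin-dominant cells sit on its left arm at a low S-phase level, whereas glucagon-dominant cells are spread over the whole arc.

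Cells rich in transcripts of S phase were also found outside the rule, which holds 1 gene of DNA synthesis. Among cells that did not pass the rule, an S-phase level of at least 3000 CPM was found in 21 of 238 polypeptide-dominant cells (8.82%, 5.55 to 13.2) and 28 of 586 glucagon-dominant cells (4.78%, 3.20 to 6.83). It was found in 5 of 473 somatostatin-dominant cells (1.06%, 0.344 to 2.45) and 7 of 869 insulin-dominant cells (0.806%, 0.324 to 1.65). With such cells added, the shares became 77 of 635 for glucagon (12.1%, 9.69 to 14.9), 27 of 244 for pancreatic polypeptide (11.1%, 7.42 to 15.7), 51 of 913 for insulin (5.59%, 4.19 to 7.28) and 22 of 490 for somatostatin (4.49%, 2.83 to 6.72). The polypeptide-dominant class, lowest by the rule, was then next to the highest. The minimum of 3000 CPM was chosen after seeing the data. With a minimum of 2000 or 4000 CPM, the polypeptide-dominant share was 14.8% or 7.38% and the glucagon-dominant share 16.7% or 10.7%.

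The dominant hormone took a lower median share of UMIs in cycling cells of each class. Insulin made up a median of 59.6% of UMIs in insulin-dominant cycling cells (upper quartile 63.0) and 65.6% in the others (70.0). Glucagon made up 24.7% (quartiles 17.3 and 30.1) in glucagon-dominant cycling cells and 27.8% (20.6 and 33.8) in the others. Somatostatin made up 9.89% in cycling and 12.1% in other somatostatin-dominant cells, and pancreatic polypeptide 10.1% in cycling and 15.8% in other polypeptide-dominant cells. The ranges of cycling and other cells overlapped in every class. Cycling cells also had more UMIs outside hormones. The medians were 15922 UMIs in cycling and 14349 in other insulin-dominant cells, and 19314 in cycling and 13771 in other glucagon-dominant cells. In somatostatin-dominant cells they were 16939 in cycling and 10040 in other cells. The rule asks for a fixed UMI count, which deeper cells reach more easily, so the rule itself favours deep cells. How much of this depth difference comes from the rule was not tested. The part of these UMIs in the hormone shares was not tested either.

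**Figure D4:**
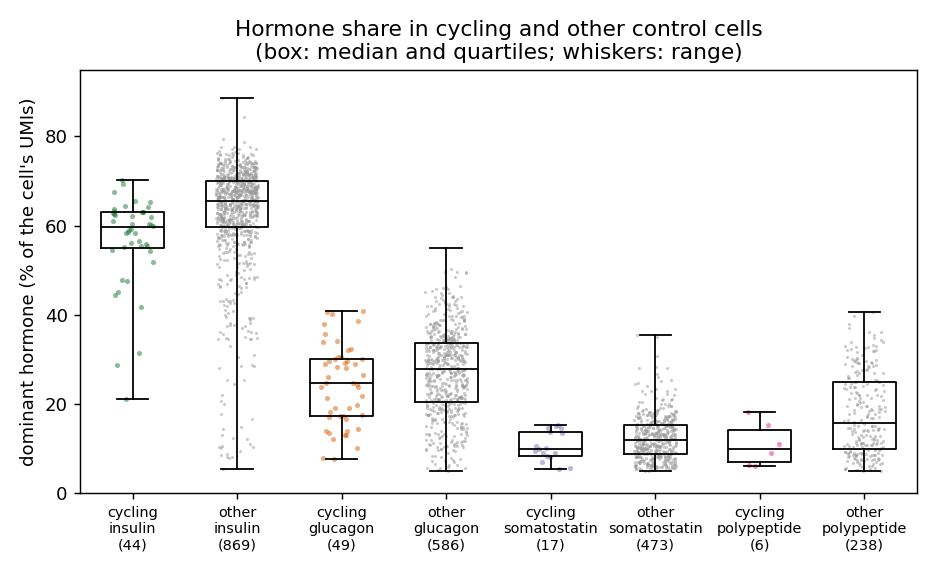
Percent of a cell's UMIs taken by its dominant hormone (vertical) in cycling (left of each pair) and other control cells of 4 classes. Boxes show median and quartiles, whiskers the range, and points single cells. Medians are lower in cycling cells of each class, 59.6% and 65.6% for insulin and 24.7% and 27.8% for glucagon, with overlapping ranges.

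Iapp, the amylin peptide that beta cells release with insulin, was measured as a share of UMIs in glucagon-dominant cells. It made up a median of 0.418% of UMIs in 49 cycling cells (quartiles 0.0593 and 0.789) and 0.0585% in 586 others (0.0256 and 0.249). A level of 0.2%, chosen after seeing the data, was reached by 26 of 49 cycling cells (53.1%, 38.3 to 67.5) and 177 of 586 others (30.2%, 26.5 to 34.1). Among the 147 deepest of the others, with a median of 28231 UMIs against 27831 in cycling cells, 60 reached it (40.8%, 32.8 to 49.2). Of cycling cells that leaned to S phase, 7 of 20 reached it (15.4% to 59.2%; median 0.0997%), a share between those of all others and of the deepest others. Of those that leaned to G2 and mitosis, 19 of 29 did (65.5%, 45.7 to 82.1; median 0.490%), and the intervals of the stages overlap. Insulin made up a median of 0.225% of UMIs in cycling and 0.219% in other glucagon-dominant cells. Without cells of several hormones, 23 of 45 cycling and 132 of 492 other glucagon-dominant cells reached 0.2% Iapp. In insulin-dominant cells Iapp summed to 3.32% of UMIs in cycling and 3.30% in other cells.

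The rest of the transcriptome was compared between cycling and other cells of the insulin and glucagon classes by summed UMIs. Of 7313 genes with at least 50 UMIs in the insulin-dominant group that was higher, 250 were at least 2-fold higher in cycling cells (3.42%) and 898 at least 2-fold lower (12.3%). Of 7859 genes in glucagon-dominant cells, 464 were higher (5.90%) and 1024 lower (13.0%). This minimum is uneven, because 50 UMIs equal 65.0 CPM in 44 insulin-dominant cycling cells and 3.90 CPM in 869 others, and 52.8 and 5.89 CPM in the glucagon class. With at least 50 CPM asked as well, 250 and 464 genes were higher (6.68% of 3740 and 12.2% of 3798 genes) and 132 and 122 were lower (3.53% and 3.21%) in insulin- and glucagon-dominant cycling cells. The median log2 ratio over all compared genes was -0.27 in insulin-dominant and -0.33 in glucagon-dominant cells. Scaled to all UMIs instead, every insulin-dominant ratio moved up, the median was -0.09, and 403 genes were higher and 532 lower. The cells were chosen on genes of the cell cycle, so the counts describe cycling cells and test nothing.

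Genes of mitosis made the largest differences. All measured members of the G2 and mitosis list were at least 2-fold higher in cycling cells, 31 of 31 in insulin-dominant cells (median log2 ratio 7.58) and 38 of 38 in glucagon-dominant cells (7.24), and the list has 44 genes. A rare gene could be measured only through the cycling cells, so these counts could hardly come out otherwise. Cenpa, the histone variant of centromeres, stood at 784 CPM in cycling and 2.58 CPM in other insulin-dominant cells (log2 ratio 8.25, interval 7.74 to 8.80), and at 421 CPM in cycling and 3.65 CPM in other glucagon-dominant cells. Cdc20, the activator of the anaphase-promoting complex, stood at 472 CPM in cycling and 0.936 CPM in other insulin-dominant cells. Aurkb, the mitotic kinase of the chromosomal passenger complex, had 132 UMIs in glucagon-dominant cycling cells and 0 in the others, a log2 ratio of at least 8.62 against a floor of 3 UMIs.

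Outside the lists, genes were ranked by the interval bound nearest to no change. In insulin-dominant cells the highest included Aspm and Knstrn of the spindle, Nek2 of the centrosome, Casc5 of the kinetochore, Kif4, a chromosome-bound kinesin, and Fam64a, Sapcd2, Gas2l3 and Sgol2a. Aspm had 129 UMIs in 25 of 44 cycling cells and 1 UMI in 869 others (log2 ratio 11.07, interval 8.57 to 16.38). Casc5, Fam64a and Sgol2a are older symbols of 3 genes listed under newer ones in the G2 and mitosis list, which is why they count as outside it. In glucagon-dominant cells, Casc5, Kif4, Fam64a and Aspm were joined by Esco2, which acetylates cohesin in S phase, the kinesins Kifc1 and Kif15, Spag5 of the spindle, and Mxd3, a transcription factor of the Myc network. Esco2 stood at 223 CPM in cycling and 0.353 CPM in other glucagon-dominant cells (log2 ratio 9.30, interval 7.73 to 11.59).

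Genes of S phase were measured more often in the glucagon class. Of 36 genes, 33 were measured in glucagon-dominant cells and all 33 were at least 2-fold higher in cycling cells (median log2 ratio 3.02). In insulin-dominant cells 11 were measured and 10 were higher (median 3.00). A gene rare in other cells could be measured only if it was high in cycling cells. The minimum count can therefore raise these counts and medians. The S-phase genes not measured in insulin-dominant cells had log2 ratios from 0.68 (Slbp) to 6.15 (Tk1). Tyms, thymidylate synthase, stood at 499 CPM in cycling and 24.7 CPM in other glucagon-dominant cells, and at 117 CPM in cycling and 14.4 CPM in other insulin-dominant cells. Summed over all 36 genes, the list stood at 6470 CPM in cycling and 939 CPM in other glucagon-dominant cells and at 2264 CPM in cycling and 472 CPM in other insulin-dominant cells. With insulin-dominant cycling cells limited to the 37 that leaned to G2 and mitosis, the median of 13 measured S-phase genes was -0.46. In so few cells, genes lower than in the 869 others pass the minimum more easily than genes higher. The whole list was not lower, with a median per cell of 638 CPM in the 37 and 353 CPM in the others.

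Most measured genes of histones, chromatin and tubulins were at least 2-fold higher, beside 5.90% of all genes in glucagon-dominant and 3.42% in insulin-dominant cells. Here too, a gene rare in other cells could be measured only if it was high in cycling cells. The minimum count can therefore raise the counts and medians of these lists. Of the 18 replication-dependent histone genes, 13 of 14 measured were higher in glucagon-dominant cycling cells (median log2 ratio 4.69) and 9 of 10 in insulin-dominant ones (1.96). Linker histone Hist1h1b stood at 2155 CPM in cycling and 8.72 CPM in other glucagon-dominant cells, and at 307 CPM in cycling and 3.43 CPM in other insulin-dominant cells. These genes make mainly transcripts without a poly(A) tail and are near-identical to each other, so their 3' counts are uncertain. Of 23 chromatin and lamina genes, 19 of 22 measured were higher in glucagon-dominant and 16 of 21 in insulin-dominant cycling cells. Hmgb2, a DNA-bending protein, stood at 1020 and 56.6 CPM in glucagon-dominant and 609 and 41.9 CPM in insulin-dominant cycling and other cells. Of 10 genes of tubulins and stathmin, 7 of 9 measured were higher in glucagon-dominant and 6 of 7 in insulin-dominant cycling cells. Tubb5, a beta-tubulin, stood at 2296 CPM in cycling and 273 CPM in other glucagon-dominant cells, and at 560 CPM in cycling and 138 CPM in other insulin-dominant cells, whereas Tubb2a had log2 ratios of 0.98 in glucagon-dominant and 0.28 in insulin-dominant cells. Stmn1, stathmin, which destabilises microtubules, stood at 609 and 11.7 CPM in glucagon-dominant and 432 and 6.32 CPM in insulin-dominant cycling and other cells.

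Inhibitors of cyclin-dependent kinases were among the genes higher in cycling cells. Of 7 inhibitors, 5 were measured in each class, and 3 were at least 2-fold higher in glucagon-dominant and 2 in insulin-dominant cycling cells. Over all genes, 5.90% and 3.42% were higher in these classes. A gene rare in other cells could be measured only if it was high in cycling cells. This held for Cdkn2c in the glucagon class, which had 29 UMIs in the other cells. Cdkn2c (p18), which binds Cdk4 and Cdk6, stood at 220 CPM in cycling and 3.42 CPM in other glucagon-dominant cells (log2 ratio 6.01, interval 5.44 to 6.62), and at 93.6 CPM in cycling and 4.06 CPM in other insulin-dominant cells (4.53, 3.99 to 5.07). Cdkn2d (p19), of the same family, stood at 299 CPM in cycling and 27.7 CPM in other glucagon-dominant cells and at 125 CPM in cycling and 42.9 CPM in other insulin-dominant cells.

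Cdkn1a (p21), the inhibitor best known as a target of p53, stood at 272 CPM in cycling and 66.8 CPM in other glucagon-dominant cells (log2 ratio 2.02, interval 1.81 to 2.24), with medians per cell of 206 CPM in cycling and 0 CPM in other cells. In insulin-dominant cells it stood at 91.0 CPM in cycling and 71.9 CPM in other cells (0.34, -0.03 to 0.69), with a median per cell of 0 CPM in both. Whether the difference between classes exceeds animal-to-animal spread cannot be told from 1 pooled library. The 16 other targets of p53 in the list showed no member at least 2-fold higher in either class, among 10 measured in each. Over all genes, 3.42% were higher and 12.3% lower in insulin-dominant cells, and 5.90% and 13.0% in glucagon-dominant cells. Sesn2 and Sesn1, stress-responsive sestrins, were at least 2-fold lower in glucagon-dominant cycling cells, Sesn2 at 26.4 CPM in cycling and 69.9 CPM in other cells and Sesn1 at 16.9 CPM in cycling and 38.1 CPM in other cells. Bbc3, which promotes cell death, had 3 UMIs in insulin-dominant cycling cells, 3.90 CPM against 12.6 CPM in the others (-1.69, -3.98 to -0.11).

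The D-type cyclins Ccnd1 and Ccnd2 were lower in cycling cells under both scalings. Ccnd2, the main D-type cyclin of mouse beta cells, stood at 999 CPM in cycling and 1525 CPM in other insulin-dominant cells (log2 ratio -0.61, interval -0.72 to -0.51), with medians per cell of 864 CPM in cycling and 1462 CPM in other cells. In glucagon-dominant cells it stood at 1377 CPM in cycling and 1825 CPM in other cells. Ccnd1 stood at 91.0 CPM in cycling and 207 CPM in other insulin-dominant cells (-1.19, -1.55 to -0.84) and at 135 CPM in cycling and 177 CPM in other glucagon-dominant cells. Cdk2, which acts with cyclins E and A, had 52 UMIs in cycling and 37 in other glucagon-dominant cells (log2 ratio 3.66). Cdk4 stood at 255 and 140 CPM in glucagon-dominant and at 196 and 188 CPM in insulin-dominant cycling and other cells.

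Within glucagon-dominant cycling cells these regulators differed between stages. Ccnd1 stood at 242 CPM (195 to 298) in the 20 that leaned to S phase, 66.1 CPM (46.8 to 90.7) in the 29 that leaned to G2 and mitosis, and 177 CPM (168 to 186) in other glucagon-dominant cells. Ccnd2 stood at 1823, 1089 and 1825 CPM in the same 3 groups, so the lower sum of cycling cells came from those that leaned to G2 and mitosis. Cdkn2c stood at 78.1, 311 and 3.42 CPM and Cdkn2d at 91.5, 433 and 27.7 CPM, so both were highest in cells that leaned to G2 and mitosis. Cdkn1a stood at 315 CPM (260 to 378), 243 CPM (205 to 287) and 66.8 CPM (61.4 to 72.5). Cdk4 stood at 328, 207 and 140 CPM.

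Of 25 genes known to regulate beta-cell replication, 11 were measured in insulin-dominant cells. Of these, 1 was higher and 2 lower, beside 3.42% higher and 12.3% lower over all genes. Ezh2, a Polycomb methyltransferase, was higher, at 81.9 CPM in cycling and 13.8 CPM in other cells (log2 ratio 2.57, interval 2.13 to 2.99). Prlr, the prolactin receptor, was lower at 81.9 CPM in cycling and 213 CPM in other cells (-1.38, -1.76 to -1.02), and Insr, the insulin receptor, at 11.7 CPM in cycling and 27.9 CPM in other cells. In glucagon-dominant cells 6 were measured and 2 were higher, beside 5.90% of all genes. Ezh2 stood at 228 CPM in cycling and 21.0 CPM in other cells. Foxm1, a transcription factor of mitotic genes, stood at 53.9 CPM in cycling and 0.471 CPM in other cells. With 4 UMIs in the others, Foxm1 could be measured only if it was high in cycling cells. Of 18 genes of nucleotide and one-carbon synthesis, 4 of 11 measured were higher in glucagon-dominant cycling cells, beside 5.90% of all genes. Among them was Dctpp1, a nucleotide pyrophosphatase, at 218 CPM in cycling and 40.9 CPM in other cells. In insulin-dominant cells 1 of 10 was higher and 1 lower, beside 3.42% higher and 12.3% lower over all genes, and no difference of the list is read from these counts. These were the mitochondrial and cytosolic folate enzymes Mthfd2, at 70.2 CPM in cycling and 32.4 CPM in other cells, and Mthfd1, at 28.6 CPM in cycling and 70.8 CPM in other cells.

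Genes of the mature beta cell had a lower median in insulin-dominant cycling cells, with members on both sides. Of 24 genes, 21 were measured, 4 were at least 2-fold lower and 0 were higher, beside 12.3% of all genes lower. The median log2 ratio was -0.55, beside -0.27 over all 7313 genes, and scaled to all UMIs it was -0.26, beside -0.09 over all genes. Slc2a2, the glucose transporter Glut2, stood at 459 CPM in cycling and 1197 CPM in other cells (-1.38, -1.54 to -1.23), with medians per cell of 355 CPM in cycling (quartiles 116 and 641) and 1116 CPM in other cells (707 and 1630). Prlr, Gipr, the receptor of the incretin GIP (27.3 CPM in cycling and 78.4 CPM in other cells), and Cox6a2, a cytochrome oxidase subunit (5.20 CPM in cycling and 37.4 CPM in other cells), were the other 3. Abcc8, the sulfonylurea receptor, stood at 166 CPM in cycling and 329 CPM in other cells. Ucn3, urocortin 3, a late marker of maturity, stood at 443 CPM in cycling and 480 CPM in other cells (-0.11, -0.28 to 0.04), and Pdx1 at 646 CPM in cycling and 480 CPM in other cells (0.43, 0.29 to 0.56).

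Among 16 genes of immature or progenitor cells, 6 were measured in insulin-dominant cells. Of these, 1 was higher and 1 lower, beside 3.42% higher and 12.3% lower over all genes. Sox4, a transcription factor of endocrine progenitors, was higher at 309 CPM in cycling and 139 CPM in other cells (1.16, 0.95 to 1.35), with medians per cell of 212 CPM in cycling and 78.3 CPM in other cells. Neurog3, the endocrine progenitor factor, had 1 UMI in cycling cells and 74 in others (-2.15, -7.47 to 0.37). In glucagon-dominant cells 8 were measured, 0 were higher and 2 were lower, beside 13.0% of all genes lower. Neurog3 had 1 UMI in cycling cells and 106 in others (-3.56, -8.88 to -1.05). Dlk1, a Notch-family ligand, stood at 4.23 CPM in cycling and 17.7 CPM in other cells.

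Over all genes, 3.42% were higher and 12.3% lower in insulin-dominant cells, and 5.90% and 13.0% in glucagon-dominant cells. Among 14 measured granule and processing genes, 0 passed 2-fold in either class. Their median log2 ratio was -0.54 in insulin-dominant cells, beside -0.27 over all genes, and -0.29 in glucagon-dominant cells, beside -0.33 over all genes. Members lay on both sides, with Scg2, secretogranin II, at 0.11 in insulin-dominant and Vgf, a granule peptide precursor, at 0.78 in glucagon-dominant cells. Chga, chromogranin A, stood at 13770 CPM in cycling and 24880 CPM in other insulin-dominant cells (-0.85, -0.88 to -0.83), and Chgb, chromogranin B, at 2828 CPM in cycling and 5450 CPM in other cells. Oxidative phosphorylation genes also had 0 of 19 past 2-fold in both classes, with medians of -0.04 in insulin-dominant and -0.09 in glucagon-dominant cells. Scaled to all UMIs, the insulin-dominant median was -0.25 for the granule list and 0.25 for oxidative phosphorylation, so the sign of the second depends on the scaling. In the unfolded protein response, Ddit3 (CHOP), a stress-induced factor, was the only 1 of 17 genes past 2-fold in insulin-dominant cells, at 105 CPM in cycling and 24.3 CPM in other cells. Its median per cell was 0 CPM in both groups. In glucagon-dominant cells 1 of 16 was past 2-fold, Hyou1, a chaperone, at 48.6 CPM in cycling and 98.0 CPM in other cells. Of 12 immediate early genes, 3 were measured in insulin-dominant cells, with 1 higher and 0 lower (median -0.03), and 8 in glucagon-dominant cells, with 0 higher and 2 lower (median -0.38). The higher one, Jun, stood at 80.6 CPM in cycling and 21.9 CPM in other insulin-dominant cells, and at 166 CPM in cycling and 85.2 CPM in other glucagon-dominant cells, in tissue dissociated with a transcription inhibitor. The immediate early genes not measured in insulin-dominant cells had log2 ratios from -0.11 (Fosb) to 4.64 (Atf3, 6 UMIs in cycling cells). The median of the 3 measured genes therefore does not describe the list.

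**Figure D5:**
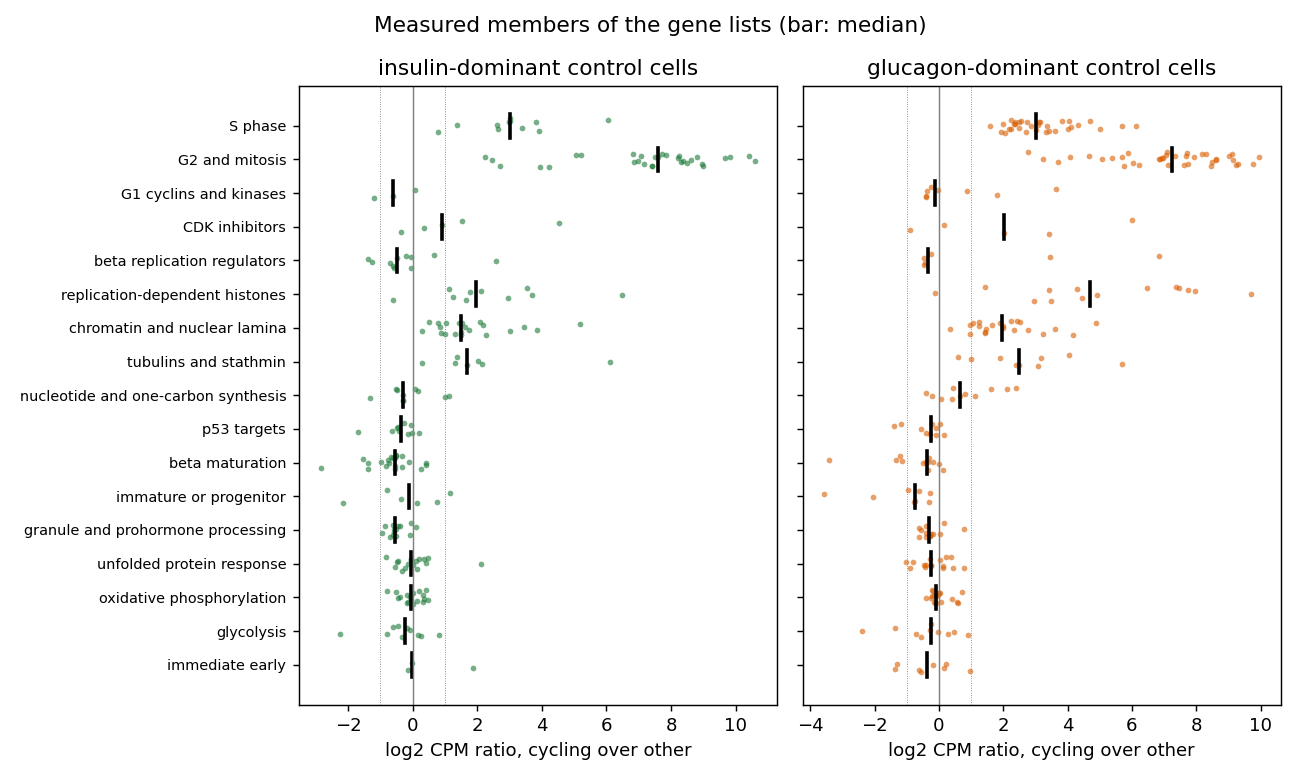
Log2 CPM ratio of cycling over other cells (horizontal) for measured members of 17 gene lists (rows), in insulin-dominant (left) and glucagon-dominant (right) control cells. Points are genes, bars list medians, dotted lines 2-fold, and genes with 0 UMIs in 1 group are drawn at a floor of 3 UMIs. The G2 and mitosis medians are 7.58 and 7.24, and the granule medians -0.54 and -0.29.

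Aldoa, the glycolytic enzyme aldolase A, was low in cycling cells of both classes. It stood at 80.6 CPM in cycling and 384 CPM in other insulin-dominant cells (log2 ratio -2.25, interval -2.64 to -1.89), with medians per cell of 60.5 CPM in cycling and 372 CPM in other cells. In glucagon-dominant cells it stood at 60.2 CPM in cycling and 315 CPM in other cells (-2.39, -2.79 to -2.01), with medians of 46.1 CPM in cycling and 282 CPM in other cells. Among glucagon-dominant cycling cells it was 80.8 CPM (54.5 to 115) in those that leaned to S phase and 47.0 CPM (31.0 to 68.3) in those that leaned to G2 and mitosis. Of the 10 measured genes of glycolysis, Aldoa was the only 1 at least 2-fold lower in insulin-dominant cycling cells. In glucagon-dominant ones it was joined by Eno2, a neuronal enolase. Over all genes, 12.3% and 13.0% were lower in these classes. Tpi1, triosephosphate isomerase, stood at 263 CPM in cycling and 150 CPM in other insulin-dominant cells, and at 320 CPM in cycling and 173 CPM in other glucagon-dominant cells. Aldoa has near-identical copies in the genome, so its counts are uncertain.

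The other genes ranked lowest in insulin-dominant cycling cells included Cd79a, Defb1, Phactr1, Dusp26, Ppp1r1a, Mrln, Rgs16 and Cox6a2. Defb1, a beta-defensin, stood at 24.7 CPM in cycling and 166 CPM in other cells (log2 ratio -2.74, interval -3.48 to -2.10), with medians per cell of 0 CPM in cycling and 117 CPM in other cells. Cd79a, a B-cell receptor component, stood at 9.10 CPM in cycling and 87.2 CPM in other cells (-3.26, -4.58 to -2.21). Ppp1r1a, an inhibitor of protein phosphatase 1, stood at 423 CPM in cycling and 1330 CPM in other cells (-1.65, -1.82 to -1.50). Mrln, which encodes the micropeptide myoregulin, stood at 134 CPM in cycling and 458 CPM in other cells.

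In glucagon-dominant cells, the lowest besides Aldoa were Fam159b, Dmrtc1a, Trnp1, Cpne8, Kdm5b, Nnat, Sult1d1, Cd24a and Acadm. Kdm5b, a histone demethylase, stood at 27.5 CPM in cycling and 119 CPM in other cells (log2 ratio -2.11, interval -2.73 to -1.55). Acadm, an enzyme of fatty acid oxidation, stood at 9.51 CPM in cycling and 46.9 CPM in other cells. Fam159b, Nnat and Cd24a were each counted in 58 or fewer of the 586 other cells, so their sums rest on few cells.

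The 17 somatostatin-dominant cycling cells were too few for counts of genes, but the regulators named above could be read. Cdkn1a stood at 326 CPM in cycling and 35.2 CPM in other somatostatin-dominant cells (log2 ratio 3.21, interval 2.83 to 3.59), and Cdkn2d at 448 CPM in cycling and 39.0 CPM in other cells (3.52, 3.18 to 3.85). Ccnd2 stood at 494 CPM in cycling and 1101 CPM in other cells (-1.15, -1.41 to -0.91). Aldoa stood at 100.3 CPM in cycling and 383 CPM in other cells (-1.93, -2.53 to -1.40).

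Transcripts of other cells moved with these comparisons. Gcg summed to 1.28% of UMIs in insulin-dominant cycling cells and 0.222% in the others, with medians per cell of 0.0310% and 0.0297%, and 6 of 44 cycling (13.6%) and 44 of 869 other cells (5.06%) carried several hormones. The alpha-cell genes Irx1 and Slc38a5 stood at 28.6 and 178 CPM in insulin-dominant cycling cells, against 4.37 and 43.2 CPM in the others. Their part in the gene differences was not tested. Mesenchymal markers summed to 255 CPM in cycling and 21.9 CPM in other glucagon-dominant cells, of which 1 cycling cell gave 221 of 241 UMIs. Doublet calls were 4 of 125 in cycling cells (3.20%) and 59 of 2371 in the others (2.49%). Without cells of several hormones, 211 genes were at least 2-fold higher and 1112 lower in insulin-dominant cycling cells, and 429 and 893 in glucagon-dominant ones. The mitochondrial share was 0.730% in cycling and 0.725% in other insulin-dominant cells, and 1.12% in cycling and 1.37% in other glucagon-dominant cells (medians). At 6825 UMIs per cell, medians of 1567.5 and 1281 genes were detected in cycling and other insulin-dominant cells, and 2235 in cycling and 2141 in other glucagon-dominant cells.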

How the data were processed

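UMI counts per gene and barcode for 46983 genes were deposited by the authors, not normalized, per the file headers; the submitters' processing notes name the build GRCm38.p6 and, as tools without stated roles, Seurat 4.3.0.1, STAR 2.7.3a and STARsolo. The control matrix lists 6794880 barcodes and the Isl1CKO matrix 3020, filtered before deposit. Cells were barcodes of 6825 UMIs or more with 500 or more genes and no more than 15% of UMIs from mitochondrial genes, leaving 2951 Isl1CKO cells (77622066 UMIs, median 25273 per cell) and 2496 control cells (72460940 UMIs, median 22686). Scrublet in scanpy 1.11.5 marked doublets in the control library, which stayed in; it was not run on Isl1CKO. The members and gene lists were chosen with earlier results of these data known.

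UMIs were summed per group and scaled to UMIs outside 8 islet hormone genes (CPM). Genes needed 50 UMIs in the group with the higher CPM, and 2-fold counted as higher or lower; the 7 rule genes were left out. Shares carry Clopper-Pearson intervals, sums exact Poisson intervals and ratios exact conditional binomial intervals, at 95%. A count of 0 was set at a floor of 3 UMIs. Named genes are the 10 highest and 10 lowest per comparison by the interval bound nearest to no change, leaving out genes of the cycle lists, hormones, mitochondrial, ribosomal, uncharacterised, sex-linked, erythroid and acinar genes; members of 17 lists are named too. Some genes that meet this rule are not reported here. The comparison was tested on simulated counts. Alternatives varied the rule, depth, barcode filters, doublets, several-hormone cells, scaling and minimum count. The code used scipy 1.17.1, pandas 2.3.3, numpy 2.4.6 and matplotlib 3.10.9 under Python 3.11.15.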

Additional observations from a re-analysis of the deposited data

How the results depend on the processing

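With 1 library per genotype, no replicate could be left out. No paired analysis was possible because each genotype has 1 library. Under 10 alternatives of the rule, cells and depth, and 1 added after seeing the data, most shares stayed within their intervals. The share of control cells that cycle was 6.01% with a minimum of 5 UMIs, 3.89% with 20 and 4.09% after thinning to 6825 UMIs, and the Isl1CKO share was 6.98%, 4.71% and 4.78%. Thinning gave 2.96% of insulin-dominant control cells. Without several-hormone cells, the shares were 6.06% of 99 somatostatin-dominant, 0% of 12 low-hormone and 4.34% of Isl1CKO cells. Without a hormone minimum, 118 of 2388 Isl1CKO cells led by insulin cycled (4.94%), since low-hormone cells then fall in that class.

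The hormone share kept its direction in all 4 classes under each alternative run for it. These were a minimum of 20 UMIs, other cells with 0 UMIs of the 7 genes, a hormone minimum of 1%, and doublets or several-hormone cells left out. Thinning was not run for it. The somatostatin difference was -5.46 percentage points without several-hormone cells, on 6 cycling cells. In insulin-dominant cells the higher genes numbered 403 and the lower ones 532 with CPM over all UMIs, and the higher ones 667 with a minimum of 20 UMIs, 119 with 100 and 36 after thinning. A minimum of 50 CPM gave 132 lower genes. In glucagon-dominant cells the higher genes numbered 796 with 20 UMIs, 268 with 100 and 128 after thinning. The lower ones numbered 644 with 100 UMIs, 653 against the deeper other cells, 122 with 50 CPM and 1542 with cells leaning to G2 and mitosis. The minimum count sets which genes can be counted; other causes were not tested.

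Reversals were -0.46 for the S-phase median in insulin-dominant cells leaning to G2 and mitosis, and 2 genes in glucagon-dominant cells. These were Cpne8 at 0.47 after thinning and Fam159b at 0.28 without several-hormone cells. The S-phase value covers 13 measured genes. The whole list had a higher median per cell in those cells, 638 CPM against 353 CPM in other insulin-dominant cells. Other values of named genes moved in 30 cases and not in 444. Scaled to all UMIs, the insulin-dominant medians were also positive for the immediate early (0.26), unfolded protein response (0.24), immature (0.18) and glycolysis (0.04) lists. Doublets could be left out in the control library only.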
